A study of Homo sapiens with 6 samples.

Results

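The genes described here are 49 genes of DNA replication and of the G1/S step of the cell cycle, measured in non-small cell lung cancer (NSCLC) cells with and without siRNA against the long noncoding RNA MALAT1. They were picked by gene symbol from a list drawn up with earlier results of these data known, and each matched 1 row among the 46427 genes of the count table. By role they fall into the MCM helicase, origin licensing, helicase activation, the sliding clamp and its loader, the polymerases and primase, Okazaki fragment maturation with the single-strand binding protein RPA, nucleotide supply, a group of chromatin assembly, checkpoint and ubiquitin ligase genes, and the cyclin E and E2F regulators.

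Total RNA was sequenced from H460, a large cell lung carcinoma line, from H1299, a line derived from a lymph node metastasis, and from A549, a lung adenocarcinoma line. Each line gave 1 library from cells transfected with si-MALAT1 and labelled as a MALAT1 knockdown, and 1 control library labelled as not treated, so the 3 lines stand as the replicates of each condition. Neither the labels nor the methods state whether the sequenced controls received a control siRNA, so the transfection and the loss of MALAT1 cannot be told apart. The spread between separate cultures of 1 line was not measured, because every line and condition had 1 library.

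As background, a cell prepares its replication origins in G1 phase by loading the MCM helicase on DNA with ORC, CDC6 and CDT1. Cyclin E and CDK2 release E2F transcription factors from the retinoblastoma protein, and E2F then switches on most of the replication genes at the G1/S boundary. In S phase CDC45 and GINS turn the loaded MCM ring into an active helicase, polymerases copy the strands behind it, PCNA holds the polymerases on DNA, and geminin, the product of GMNN, blocks a second round of loading. Their mRNAs are therefore widely used as a readout of proliferating cells, and in tumor cell lines nearly all of them are detected.

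The 6 libraries held between 42506818 and 68515992 counted reads. MALAT1 itself was lower in the si-MALAT1 library of each line, with log2 differences of -2.32 (H460), -2.96 (H1299), and -2.84 (A549). The epithelial keratin genes KRT8 and KRT18 and the filament gene VIM were abundant in all 6 libraries, while NKX2-1, a lung lineage factor, had no read in H460 or A549 and 28 and 30 reads in the H1299 libraries. EPCAM, an epithelial surface gene, stayed between 0.252 and 8.04 TPM, a measure of level that is scaled by transcript length. All 49 genes were read in every library, with at least 248 reads each, and all passed the filters on low counts.

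The promoters of these genes are shown first because E2F is the best known regulator of the group. RefSeq promoter sequences (GRCh38.p14, 250 bases before to 50 after the annotated start) were matched for 42 of the 49 genes, and MCM4, MCM5, GINS4, POLD3, RPA2, RPA3, and CCNE2 had no entry. The E2F consensus was searched on both strands as the letters TTTCCCGC, TTTGGCGC, TTTCGCGC, and TTTGCCGC, whose matches can overlap each other. A match was present in 20 of the 42 promoters (47.6%), against 3.33% of all 27305 promoters of the same length. Windows of 60 bases are printed 5′ to 3′ on the gene's strand for 9 genes that stand for different roles, with the matched letters in capitals.
MCM2, chr3:127598381-127598440, plus strand: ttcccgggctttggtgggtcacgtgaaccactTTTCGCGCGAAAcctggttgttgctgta
MCM3, chr6:52284883-52284942, minus strand: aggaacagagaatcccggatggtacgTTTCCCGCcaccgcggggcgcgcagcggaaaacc
MCM6, chr2:135876560-135876619, minus strand: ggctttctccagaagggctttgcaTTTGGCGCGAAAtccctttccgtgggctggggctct
MCM7, chr7:100101551-100101610, minus strand: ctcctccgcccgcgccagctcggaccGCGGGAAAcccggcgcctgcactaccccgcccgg
CDC6, chr17:40287849-40287908, plus strand: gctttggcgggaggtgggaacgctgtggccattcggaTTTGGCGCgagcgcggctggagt
GINS1, chr20:25407643-25407702, plus strand: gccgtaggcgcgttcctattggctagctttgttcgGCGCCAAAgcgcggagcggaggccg
PCNA, chr20:5126648-5126707, minus strand: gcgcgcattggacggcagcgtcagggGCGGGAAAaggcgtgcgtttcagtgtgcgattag
TYMS, chr18:657588-657647, plus strand: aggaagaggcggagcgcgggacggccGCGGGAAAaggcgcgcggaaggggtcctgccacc
E2F1, chr20:33686379-33686438, minus strand: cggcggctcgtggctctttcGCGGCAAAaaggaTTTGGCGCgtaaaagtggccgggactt

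After si-MALAT1, the replication genes moved in opposite directions in H460 and H1299. Their median difference, given throughout as si-MALAT1 minus control on the log2(scaled count + 1) scale, was 0.23 in H460, -0.72 in H1299, and -0.14 in A549. Scaled counts are read counts divided by the library's size factor, so that libraries of different depth can be compared. In H460 43 of the 49 genes were higher, in H1299 48 were lower, and in A549 34 were lower. Over the 17834 genes with a read in every library the medians were 0.02, 0.02, and 0.01. In a bulk library, fewer cells in S phase and less RNA per cell cannot be told apart.

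At 1.5-fold or more, 5 genes were higher and 1 was lower in H460, where 9.5% of all genes were higher and 10.3% lower by that size. In H1299 no member was higher, against 11.7% of all genes, and 33 members (67.3%) were lower, against 11.4%. In A549 2 members were higher, against 11.5%, and 8 (16.3%) were lower, against 11.4%. The H1299 share stood far above its background, while the H460 share of higher genes (10.2%) was near its own. The H460 shift was thus made of many small differences, in which 42 of the 49 genes (85.7%) had a counting interval (95%, Clopper-Pearson, counting error only) wholly above 0, as had 31.3% of all genes. With 1 library per line and condition there is no test within a line.

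Of the 49 genes, 42 (85.7%) were higher in H460 and lower in H1299, a combination seen in 22.4% of all genes. None had the reverse combination. The A549 value lay between the H460 and H1299 values for 45 genes (91.8%), against 41.6% of all genes. H460 had the highest of the 3 values for 47 genes and H1299 the lowest for 47. On scaled counts 5 genes were lower in 3 of 3 lines, namely ORC1, GMNN, RFC5, TYMS, and CHAF1A, and RFC1 was higher in 3 of 3. These shares, 10.2% and 2.04%, were below those of all genes, 18.8% and 21.4%. Membership depended on the scaling, as RPA1 was also lower in 3 of 3 under TMM scaling. On the log2(TPM + 1) scale CDT1, CHAF1B, MCM3, MCM6, MCM7, POLD3, and RPA1 were also lower in 3 of 3, and RPA2 was also higher. Shares of all genes on those scales were not computed. Whether H460 and H1299 differ beyond the spread between cultures was not tested.

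The scaling of the libraries moved all genes together and the members with them. On the log2(TPM + 1) scale the H460 median of the members was 0.10 and that of all genes -0.07, and 33 members were above 0 in H460 and below 0 in H1299. Relative to the all-gene median of each line, a comparison added after the data had been seen, 41 members lay above it in H460 and below it in H1299 on that scale, and 42 did so on the scaled counts. CLSPN, at -0.21 in H460 on the log2(TPM + 1) scale, was the member above 0 on scaled counts that fell below the all-gene median there. The H1299 median of the members was -0.60 on that scale, beside 0.04 for all genes. In A549, 12 members lay above the all-gene median under both size factor (RLE) and TMM scaling.

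**Figure D1:**
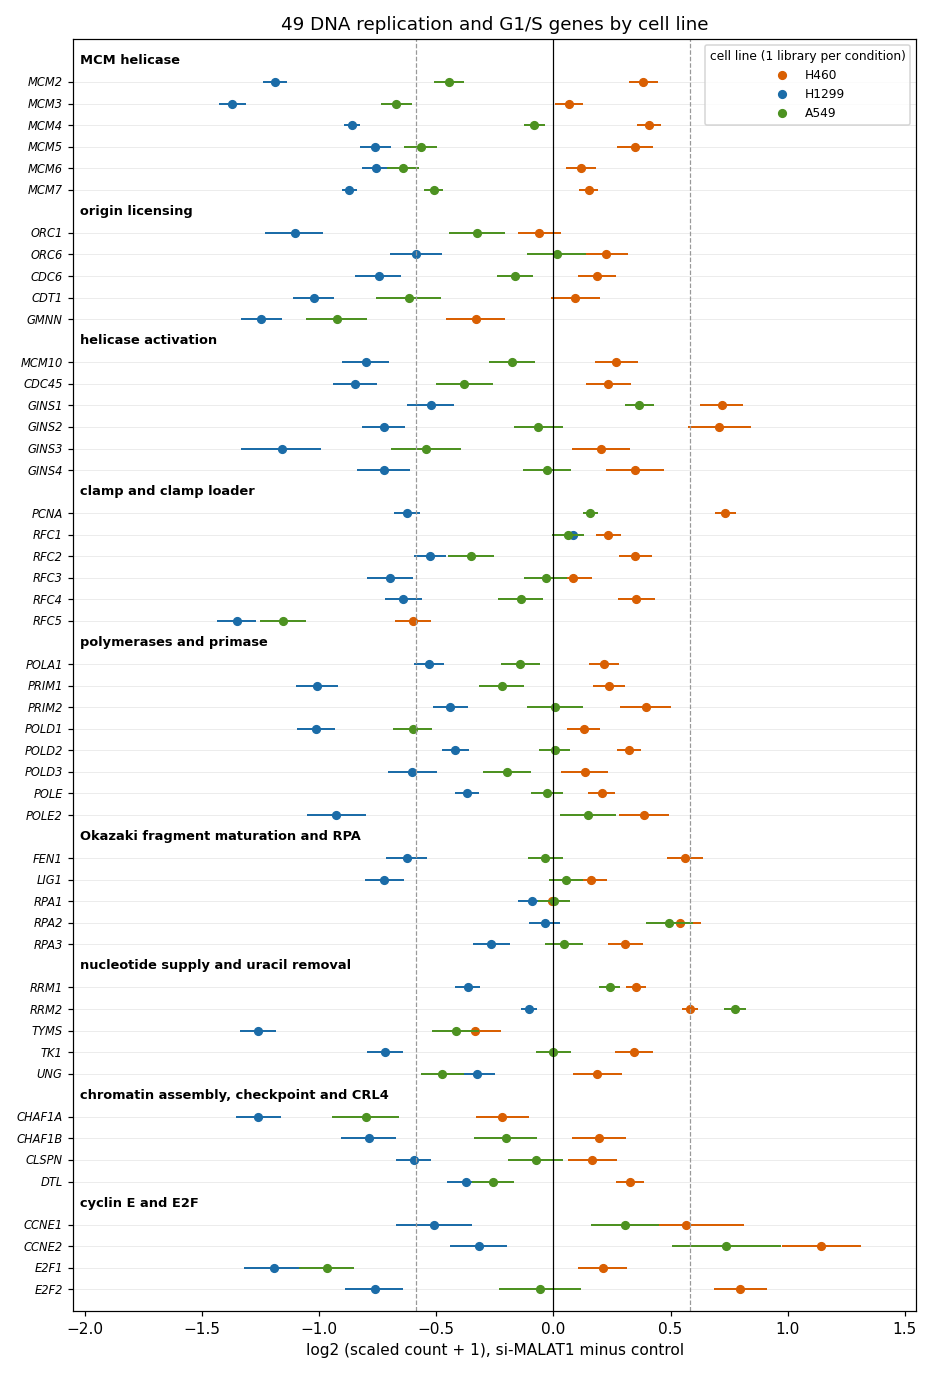
Difference between si-MALAT1 and control for each of the 49 genes, on the log2(scaled count + 1) scale, in H460 (orange), H1299 (blue), and A549 (green). Points are single library pairs, bars are 95% counting intervals, and dashed lines mark 1.5-fold. The blue points lie left of 0 for 48 genes and the orange points right of 0 for 43.

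The 6 MCM genes, which encode the subunits of the replicative helicase ring, showed the pattern in every member, the medians being 0.25 for H460, -0.87 for H1299, and -0.54 for A549. On the log2(TPM + 1) scale MCM3, MCM6, and MCM7 were at -0.05, -0.02, and -0.01 in H460, above the all-gene median of -0.07. MCM2 had scaled counts of 3943 and 5144 in the control and si-MALAT1 libraries of H460, 10143 and 4450 in the H1299 pair, and 6343 and 4655 in A549. Pairs of scaled counts are given in this way below, the control first, and where no line is named the order is H460, H1299, A549. The MCM2 control libraries differed widely, H1299 being the highest of the 6 libraries, and the si-MALAT1 libraries lay closer together. The difference was 0.38 (95% interval 0.32 to 0.44) in H460, -1.19 (-1.24 to -1.14) in H1299, and -0.45 (-0.51 to -0.39) in A549.

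MCM3 had the lowest H1299 value of all 49 genes, with 8317 scaled counts in the control and 3215 in the si-MALAT1 library. The same gene had 4956 and 5188 in H460 and 6936 and 4357 in A549, so the conditions overlapped only through H460. MCM4, MCM5, MCM6, and MCM7 lay between 0.12 and 0.41 in H460, between -0.87 and -0.76 in H1299, and between -0.64 and -0.08 in A549. Of the 6 MCM genes, 6 passed 1.5-fold in H1299 and 2, MCM3 and MCM6, passed it in A549.

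Origin licensing genes were the group with the lowest H1299 median, -1.02 over 5 genes, beside 0.09 in H460 and -0.33 in A549. ORC1, the largest subunit of the origin recognition complex, had scaled counts of 2066 and 1982 in H460, 1555 and 722 in the H1299 pair, and 1736 and 1385 in A549. The H460 difference of ORC1 was -0.06, with an interval (-0.15 to 0.03) that included 0. CDC6, the ATPase that helps to load MCM, had 2400 and 2730 in H460, 2077 and 1237 in the H1299 pair, and 3960 and 3535 in A549. Only the H1299 pair of CDC6 was apart by more than 1.5-fold (-0.75).

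CDT1, the loading factor that brings MCM to origins, had scaled counts of 1496 and 1597 in H460, 3018 and 1484 in the H1299 pair, and 1423 and 926 in A549. Its H460 interval (-0.01 to 0.19) included 0, and the losses in H1299 (-1.02) and A549 (-0.62) both passed 1.5-fold. GMNN, whose product geminin inhibits CDT1, was lower in each line, with 1221 and 970 in H460, 3395 and 1430 in the H1299 pair, and 1798 and 947 in A549. The differences of GMNN were -0.33, -1.25, and -0.93, and the si-MALAT1 library was the lower one in 3 of 3 pairs. ORC6, another origin recognition subunit, had 0.22, -0.59, and 0.01.

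Helicase activation genes included 2 of the 5 genes that passed 1.5-fold upward in H460, GINS1 (0.72) and GINS2 (0.71). GINS1, a subunit of the GINS complex, had scaled counts of 1576 and 2593 in H460, 1789 and 1245 in the H1299 pair, and 5258 and 6779 in A549. Both A549 libraries exceeded the other four, and the si-MALAT1 library was the higher one in H460 and A549. GINS3, a subunit of the same complex, differed from GINS1 in A549 (-0.54 against 0.37) and in H1299 (-1.16 against -0.52), and its H460 difference was 0.20. CDC45, the helicase cofactor, had 1698 and 1997 in H460, 2360 and 1313 in the H1299 pair, and 1717 and 1318 in A549.

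MCM10, an initiation factor that acts with CDC45, had differences of 0.27, -0.80, and -0.18, from scaled counts of 1831 and 2204, 2008 and 1151, and 2470 and 2186. GINS4 had 0.35, -0.72, and -0.03. All 6 genes of this group were higher in H460 and lower in H1299.

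**Figure D2:**
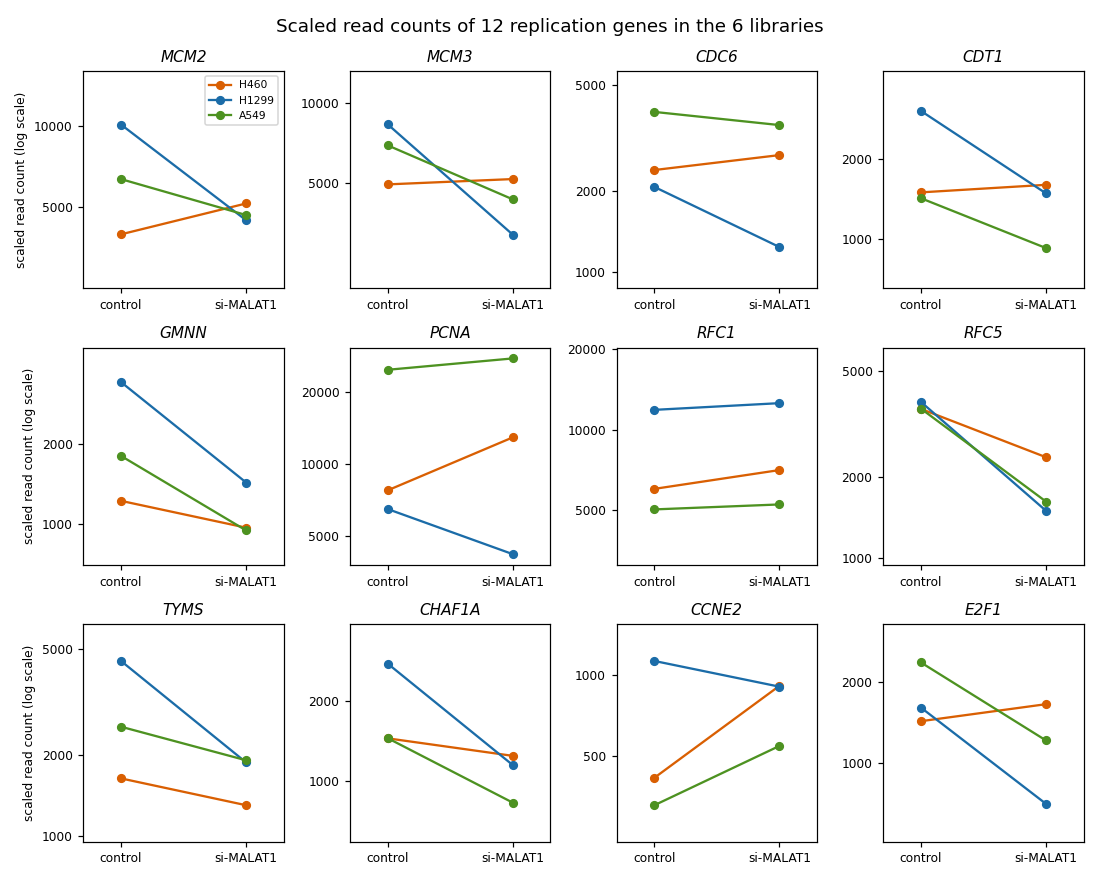
Scaled read counts (log axis) of 12 replication genes in the control and si-MALAT1 library of H460 (orange), H1299 (blue), and A549 (green), with 1 library per point. RFC5 and CHAF1A are the panels in which all 3 controls lie above all 3 si-MALAT1 libraries, which was not counted over all genes. The H460 line of MCM2, PCNA, CCNE2, and E2F1 rises while the H1299 line falls.

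The clamp and its loader held a gene that was higher in each line, RFC1, and one that was lower in each line, RFC5. PCNA, the sliding clamp, had scaled counts of 7755 and 12900 in H460, 6482 and 4203 in the H1299 pair, and 24690 and 27539 in A549. Both A549 libraries were above the other four, and the differences were 0.73, -0.63, and 0.16. RFC1, the large subunit of the clamp loader, had 6002 and 7058 in H460, 11852 and 12557 in the H1299 pair, and 5030 and 5250 in A549. RFC1 was the only member with a positive H1299 difference, 0.08 (0.05 to 0.12), apart from RPA2 at 0.01 on the log2(TPM + 1) scale.

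RFC5, a small subunit of the same loader, went the other way. It had scaled counts of 3604, 3829, and 3614 in the H460, H1299, and A549 controls and of 2377, 1499, and 1623 in the matching si-MALAT1 libraries. The 3 controls lay within a narrow range and above each si-MALAT1 library, a separation that was not counted over all genes. RFC5 was the single member (2.04%) lower by 1.5-fold or more in 3 of 3 lines, at -0.60 (-0.67 to -0.53), -1.35 (-1.43 to -1.27), and -1.15 (-1.25 to -1.06), and 1.28% of all genes were. RFC2, RFC3, and RFC4 ranged from 0.09 to 0.35 in H460, -0.70 to -0.53 in H1299, and -0.35 to -0.03 in A549. RFC5 lies on the plus strand at chr12:118016661-118033564 (GRCh38), and 13.7% of its exonic bases overlap WSB2 on the opposite strand. For PCNA, MCM2, TYMS, and CCNE2 that share was 26.7%, 31.4%, 59.6%, and 62.3%, and since the use of strand in counting is not stated, reads of these genes and of their partners may not be separable.

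The 8 polymerase and primase genes were all higher in H460 and lower in H1299 on scaled counts, POLD3 being at -0.0029 in H460 on the log2(TPM + 1) scale, with medians of 0.23, -0.57, and -0.08. POLA1, the catalytic subunit of the priming polymerase alpha, had scaled counts of 3940 and 4577 in H460, 4757 and 3289 in the H1299 pair, and 3425 and 3107 in A549. The primase subunits PRIM1 and PRIM2 differed in H1299, with -1.01 for PRIM1 and -0.44 for PRIM2. POLE2, an accessory subunit of the leading strand polymerase epsilon, had 1275 and 1668, 1337 and 703, and 1434 and 1587. Its H1299 si-MALAT1 library was the lowest of the 6 by a wide margin, at a difference of -0.93. POLD1, POLD2, and POLD3 of the lagging strand polymerase delta had -1.01, -0.42, and -0.60 in H1299, and POLE, the catalytic subunit of polymerase epsilon, had -0.37.

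Genes of RPA, the complex that coats single-stranded DNA, differed little between the H1299 libraries. RPA1 had scaled counts of 4164 and 4145 in H460, 4974 and 4662 in the H1299 pair, and 4905 and 4919 in A549, and its differences were -0.01, -0.09, and 0.00. The TPM values of RPA1, which also depend on the transcript lengths assigned to it, were 22.0 and 15.3 in H460. RPA2 had 1856 and 2703, 3660 and 3567, and 1896 and 2670, so that it was higher in H460 (0.54) and A549 (0.49) with an H1299 interval (-0.10 to 0.02) that included 0. RPA3 had 2744 and 3394, 2749 and 2287, and 3362 and 3471. The nuclease gene FEN1 and the ligase gene LIG1, which finish Okazaki fragments, followed the main pattern with -0.63 and -0.72 in H1299. FEN1 had 2470 and 3641 scaled counts in H460, 2601 and 1684 in the H1299 pair, and 4070 and 3972 in A549.

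Nucleotide supply genes were not uniform. RRM2, the regulatory subunit of ribonucleotide reductase, had the highest A549 difference of all 49 genes, 0.77 (0.73 to 0.82), from scaled counts of 8991 and 15376. In H460 RRM2 had 13598 and 20369 (0.58) and in H1299 15169 and 14106 (-0.10). RRM1, the catalytic subunit, had 9083 and 11597, 6233 and 4835, and 10845 and 12809, and so had the same signs as RRM2 in each line.

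TYMS, which encodes the thymidylate synthase that makes dTMP, was lower in each line, with 1639 and 1301 in H460, 4505 and 1880 in the H1299 pair, and 2558 and 1916 in A549. The drop was -0.33, -1.26, and -0.42. TK1, the thymidine kinase of the salvage route to the same nucleotide, had 2399 and 3047, 3366 and 2046, and 4095 and 4090, and its A549 interval (-0.07 to 0.07) included 0. UNG, the glycosylase that removes uracil from DNA, had 1473 and 1678, 2682 and 2138, and 3169 and 2279. UNG was lowest in A549, at -0.48, beside -0.33 in H1299.

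CHAF1A, the large subunit of the chromatin assembly factor that deposits histones behind the fork, was lower in each line. It had scaled counts of 1446, 2752, and 1448 in the H460, H1299, and A549 controls and of 1243, 1149, and 831 after si-MALAT1. The conditions did not overlap, a separation that was not counted over all genes. The differences were -0.22, -1.26, and -0.80. CHAF1B, the partner subunit, had 0.19, -0.79, and -0.20. CLSPN, the checkpoint adaptor claspin, had 1491 and 1674, 3437 and 2274, and 1653 and 1569. DTL, which targets CDT1 for destruction in S phase, had 4687 and 5882 in H460, 2728 and 2105 in the H1299 pair, and 3109 and 2602 in A549, and both H460 libraries were above the other four.

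The G1/S regulators CCNE1, CCNE2, E2F1, and E2F2 had the highest H460 median of the role groups, 0.68, beside -0.64 in H1299 and 0.13 in A549. E2F1 stood apart, as its H460 difference of 0.21 was below the median of the 49 genes (0.23). CCNE2, one of the cyclin E genes, had scaled counts of 413 and 913 in H460, 1131 and 907 in the H1299 pair, and 326 and 544 in A549. Its H460 difference of 1.14 (0.98 to 1.31) was the highest of all 49 genes and its A549 difference was 0.74. CCNE1, the other cyclin E gene, had 229 and 340, 662 and 465, and 948 and 1172. E2F2 had 1004 and 1746 in H460, 1290 and 759 in the H1299 pair, and 723 and 695 in A549, with differences of 0.80, -0.76, and -0.06.

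E2F1, the activator E2F that is itself switched on at G1/S, did not follow CCNE2 and CCNE1 in A549. It had scaled counts of 1433 and 1659 in H460, 1612 and 704 in the H1299 pair, and 2377 and 1215 in A549. The A549 difference of -0.97 was the second lowest of any member in that line after RFC5, and the H1299 difference was -1.20.

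Across the 3 lines taken as replicates, edgeR's quasi-likelihood test, blocked on cell line and adjusted by Benjamini-Hochberg over 19122 genes, called 0 of the 49 genes. By the same test 1 gene in all was called (0.00523%), which was MALAT1. At an unadjusted p under 0.05, 8 members were lower (MCM3, ORC1, CDT1, GMNN, RFC5, TYMS, CHAF1A, and E2F1) and 0 were higher, beside 7.59% and 7.38% of all genes. The closest to the threshold were RFC5 with a log2 fold change of -1.05 (edgeR adjusted p = 0.0819), GMNN with -0.86 (edgeR adjusted p = 0.131), CHAF1A with -0.78 (edgeR adjusted p = 0.173), and TYMS with -0.69 (edgeR adjusted p = 0.203). On scaled counts all 4 were lower in 3 of 3 lines, and MCM3, the next with -0.68 (edgeR adjusted p = 0.308), was lower in 2 of 3.

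The DESeq2 Wald test with the same block called 3 members, all lower, where it called 4.86% of genes lower. They were RFC5 (DESeq2 adjusted p = 2.1e-05), GMNN (DESeq2 adjusted p = 0.0078), and CHAF1A (DESeq2 adjusted p = 0.0368). The count of members that DESeq2 called lower was thus near its background. Without the H460 pair, edgeR called RFC5, GMNN, and E2F1 lower, against 0.549% of all genes, and the members lower at an unadjusted p under 0.05 rose from 8 to 23, while 7.41% of all genes were lower at that level. That fit had 2 pairs of libraries. Without the H1299 pair 4 members were lower and 6 higher at that level, the 6 being PCNA, GINS1, RPA2, RRM1, RRM2, and CCNE2. Of all genes 7.13% were lower and 6.75% higher in that fit, so the lower count was near its background.

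The fitted log2 fold change was below 0 for 40 members and above 0 for 9. Values of opposite sign entered many of these means. E2F2 had a fitted log2 fold change of -0.02 (edgeR adjusted p = 0.979) although its line values spanned 1.56, and MCM2, with the widest span of all (1.57), had -0.44 (edgeR adjusted p = 0.535). CCNE2, the highest fitted member, had 0.49 (edgeR adjusted p = 0.482) and was higher in 2 of 3 lines. RPA1 had the narrowest span between H460 and H1299, 0.0867.

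**Figure D3:**
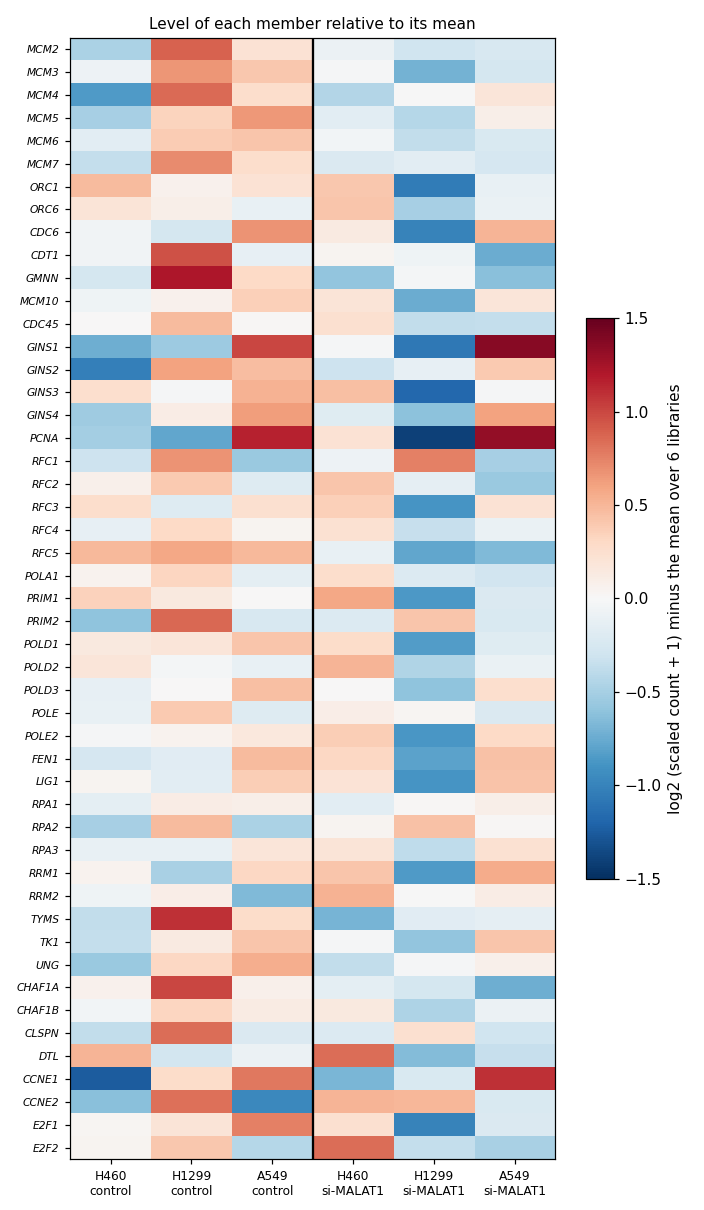
Level of each of the 49 genes in the 6 libraries as log2(scaled count + 1) minus the gene's mean over the libraries, red for higher and blue for lower, with the 3 controls left of the black line. H1299 is the highest of the controls for 24 genes and the lowest of the si-MALAT1 libraries for 30.

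The order of the lines changed between the conditions. Among the 3 control libraries, H460 had the lowest scaled count for 30 of the 49 genes and H1299 the highest for 24. Among the 3 si-MALAT1 libraries, H460 had the highest for 26 and H1299 the lowest for 30. In H460 the members took 0.248% of the counted reads without and 0.304% with si-MALAT1. The corresponding shares were 0.422% and 0.273% for H1299, then 0.374% and 0.358% for A549. The H1299 control thus had the highest share of the 6 libraries and the H460 control the lowest. The spread between lines was of the same size in both conditions, with a median SD over 3 lines of 0.40 among controls and 0.43 among si-MALAT1 libraries on the log2 scale.

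Per transcript length, PCNA was the most abundant member in the H460 and A549 libraries, from 112 TPM in the H460 control to 463 TPM in A549 si-MALAT1. In H1299 it was MCM7, at 217 TPM in the control and 123 TPM after si-MALAT1. CCNE1, CCNE2, and E2F2 were the least abundant, with the lowest member of each library between 2.20 and 5.54 TPM. The median member lay between 16.0 and 27.5 TPM in the 6 libraries, and the H1299 control had the highest median.

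With the treatment as a term, the edgeR test between lines used the 2 libraries of each line as its samples, and the 3 contrasts share libraries with each other. Between H1299 and H460, 9 members were called higher in H1299 (26% of all genes were) and 8 lower (26.6%). Between A549 and H460, 6 were higher in A549 (18.9%) and 1 lower (19.3%). Between H1299 and A549, 7 were higher in H1299 (24.5%) and 10 lower (24.4%). In this edgeR fit of all 6 libraries the shares of the 49 genes were below the background, and 24 members were called in no pair of lines. DESeq2 called 20.4% of the members higher and 20.4% lower in H1299 than in H460, against 18% and 17.2% of 31353 genes. For A549 against H460 it called 14.3% higher and 4.08% lower (13.1% and 13.5% of the 31353). For H1299 against A549 it called 16.3% higher and 20.4% lower (17% and 16%). The 31353 are all genes with at least 1 read, whether or not DESeq2 gave an adjusted p. These DESeq2 shares therefore have another base than those of edgeR and do not show whether the members lie above or below the background. By edgeR, PCNA and CCNE1 were called in all 3 pairs, both highest in A549.

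Only 8 of these calls held when each of the 6 libraries was left out in turn and under the other 3 settings. RFC1 was higher in H1299 than in H460 (log2 difference 0.89, edgeR adjusted p = 0.00224) and A549 (1.24, edgeR adjusted p = 0.000787). PRIM2 was higher (1.04, edgeR adjusted p = 0.00764) and DTL lower (-1.15, edgeR adjusted p = 0.00376) in H1299 than in H460. PCNA was lower in H1299 than in A549 (-2.29, edgeR adjusted p = 0.00191), as were GINS1 (-1.97, edgeR adjusted p = 0.00253) and CDC6 (-1.21, edgeR adjusted p = 0.00607). CCNE1 was higher in A549 than in H460 (1.90, edgeR adjusted p = 0.00357). Neighbours in the order that did not pass the test included GINS1 between H1299 and H460 (-0.43, edgeR adjusted p = 0.251), and RFC1 between A549 and H460 (-0.34, edgeR adjusted p = 0.0898).

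Counts of these calls moved with single libraries. Between H1299 and H460, the 9 higher and 8 lower members became 3 and 18 without the H460 control, where 22.3% and 20.6% of all genes were called, and 3 and 18 without the H1299 control (19.9% and 22.4%). They became 16 and 1 without the H460 si-MALAT1 library (21.8% and 19.9%), and 13 and 2 without that of H1299 (18.6% and 21.4%). Without the A549 control or the A549 si-MALAT1 library fewer members were called, and the share of all genes called was slightly lower as well. The direction in which the members stood out between these lines thus depended on which condition was left in. Calls between A549 and H460 rose without either H1299 library, and those between H1299 and A549 rose without either H460 library. Both fell without an A549 library, in fits that leave a single A549 library. The shares of all genes called in these 2 contrasts fell there too, so the fall was not particular to the members.

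A further 60 genes of replication and of G1/S control, such as CDK2, the D cyclins, the retinoblastoma family, and the remaining ORC and polymerase subunits, were set beside the 49. With CCND2 left out for a library without a read, the medians of the 59 others were 0.10 (H460), -0.30 (H1299), and -0.07 (A549). In H1299 17 of them (28.8%) were lower by 1.5-fold or more and 3 were higher. Of the 59, 28 (47.5%) were higher in H460 and lower in H1299. The edgeR paired test called 0 of the 60, with 10 lower and 4 higher at an unadjusted p under 0.05, beside 7.59% and 7.38% of all genes. DESeq2 called 5 lower (POLA2, DCK, RBL2, SKP2, and MCM8) and 3 higher (CCND1, CDKN1B, and WEE1). Of the 13117 genes with an adjusted p it called 638 (4.86%) lower and 695 higher, so the higher count was near its background.

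POLA2, the accessory subunit of polymerase alpha, resembled RFC5 in being lower by 1.5-fold or more in 3 of 3 lines, at -0.60, -1.04, and -0.99. SKP2, which marks the cyclin-dependent kinase inhibitor p27 for destruction, had -0.36, -1.53, and -0.67, the H1299 value being lower than that of any of the 49 genes. CCND1, which encodes the cyclin D1 that acts ahead of cyclin E, was higher in each line, at 0.69, 0.52, and 0.78, the direction opposite to most replication genes in H1299. Its fitted log2 fold change was 0.64 (edgeR adjusted p = 0.0994).

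The medians of a list of 42 mitosis genes were 0.20 (H460), -0.49 (H1299), and 0.09 (A549). Of these, 33 (78.6%) were higher in H460 and lower in H1299. In H1299 14 of them (33.3%) were lower by 1.5-fold or more, compared with 67.3% of the replication genes. In A549 27 mitosis genes were higher, whereas 34 of the 49 replication genes were lower. Thus the mitosis list shared the H460 and H1299 directions, and the A549 medians of the lists had opposite signs (-0.14 and 0.09).

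**Figure D4:**
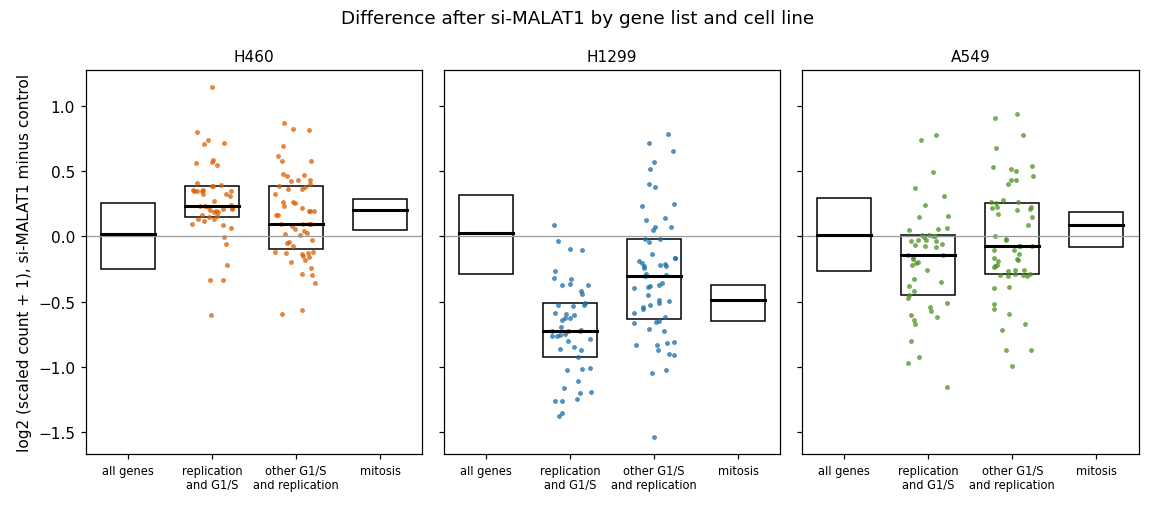
Difference after si-MALAT1 by gene list in H460, H1299, and A549, on the log2(scaled count + 1) scale. Boxes span the quartiles with the median as a thick line over all 17834 genes, the 49 replication genes, 59 other G1/S and replication genes, and 42 mitosis genes, and points are single genes of the 2 replication lists. In H1299 the box of the 49 genes lies lowest, with a median of -0.72.

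Returning to the promoters, the E2F letters were found in 26.7% of the promoters of the other G1/S and replication genes, in 8.82% of those of the mitosis genes, and in 5.39% of the 11960 promoters of genes with reads in every library. Of 27 matches in the promoters of the 49 genes, 19 began within 60 bases of the start. The CCAAT letters of NF-Y (both strands) were present in 59.5% of the members' promoters and in 35.7% of all promoters. The CHR letters TTTGAA (both strands), known from promoters of mitosis genes, were present in 2.38% of the members' promoters, 64.7% of the mitosis promoters, and 15.4% of all. The members' promoters had a median GC content of 65.3%, the same as genes with reads in every library.

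Among the members, genes with and without the E2F letters had similar medians. The 20 genes with a match, which include the MCM2, MCM3, CDC6, PCNA, and E2F1 windows printed above, had medians of 0.20, -0.75, and -0.15 in H460, H1299, and A549. The 22 genes without a match had 0.24, -0.63, and -0.16. Of the 5 genes lower in 3 of 3 lines on scaled counts, TYMS had a match and ORC1, GMNN, RFC5, and CHAF1A had none. A match is a description of letters and not evidence of binding.

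**Figure D5:**
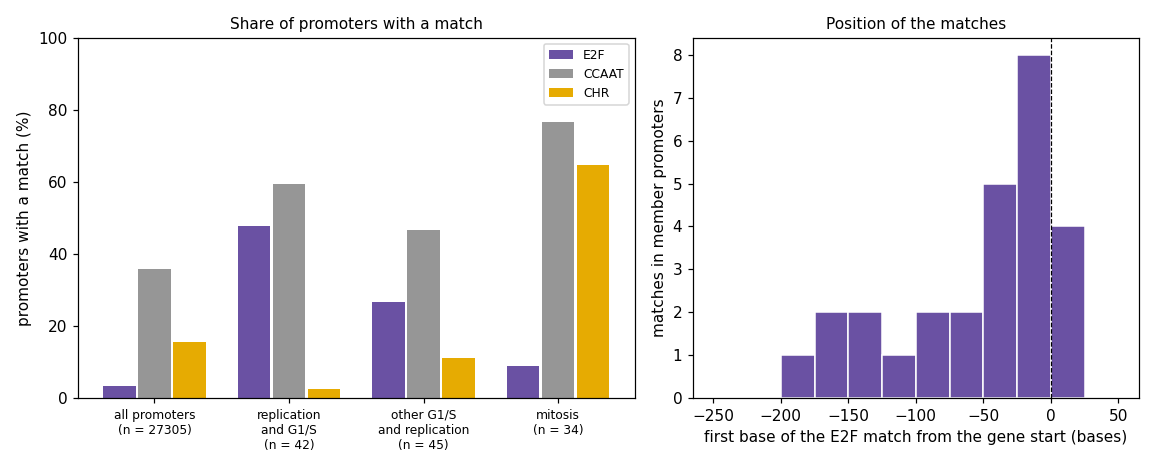
Left, percent of promoters with a match to the E2F, CCAAT, or CHR letters among all promoters, the replication genes, the other G1/S and replication genes, and the mitosis genes. Right, number of E2F matches in the members' promoters by distance of the first matched base from the gene start, in bins of 25 bases, with 19 of 27 within 60 bases.

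The 3′ untranslated regions were read for TGAATCA and ATGAATC, 2 words that had stood out in an earlier search of these same data and are therefore given as a description. They were present in 3 of the 49 genes (6.12%), MCM10, RFC5, and CHAF1A, against 17.8% of 12579 genes with a read in every library. RFC5 and CHAF1A are among the 5 members lower in 3 of 3 lines on scaled counts, and RFC5 held both words as 1 overlapping run. The sites are printed as 30 bases of the canonical transcript (GENCODE v44, GRCh38, plus strand) with the words in capitals.
RFC5, chr12:118031360-118031389: ggggctgtgggATGAATCAgtcaccccgaa
CHAF1A, chr19:4443202-4443231: aagagccgcatATGAATCtgccctttaata
MCM10, chr10:13209932-13209961: gatcaagccacTGAATCActttgcatttca

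The 3 genes with a word had medians of -0.22, -1.26, and -0.80 in H460, H1299, and A549, and the 46 without had 0.24, -0.71, and -0.08. MCM10, with a word, was higher in H460 (0.27), and GMNN, TYMS, and ORC1, without one, were lower in each line. Of the 59 other G1/S and replication genes 11 (18.6%) held a word, a share near that of all genes. POLA2, DCK, and RBL2, called lower by DESeq2, were among the 11, as were CDK6, CDC25A, ORC4, and DBF4, whose fitted values were 0.25, 0.20, 0.12, and 0.04, and SKP2 and MCM8, also called lower, held none. Over all genes the medians with and without a word were -0.12 and 0.05 in H460, and genes with a word had longer 3′ untranslated regions (median 3231 bases against 1058).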

How the data were processed

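RNA was extracted with Trizol and sequenced after ribosomal RNA depletion as paired-end libraries. The authors trimmed the reads with Trimmomatic, aligned them with HISAT2 2.1.0, and assembled and counted them with StringTie (1.3.4b in the submitters' processing notes). The deposited gene table holds raw read counts per gene and, computed by the authors from the same alignments, TPM values. Coordinates come from the deposited annotation, which lies on GRCh38. The table's FPKM values and 18 columns that belong to no sample of the series were not used.

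Counts were tested as deposited with edgeR 4.0.16 in R 4.3.3 (TMM, filterByExpr, glmQLFit, cell line as a block, Benjamini-Hochberg over 19122 genes, 2 residual degrees of freedom), and the line contrasts came from the same fit. DESeq2 1.42.0 with the same block was the alternative. The scripts recovered known changes when tested on simulated data, in which a changed gene had the same fold in every line. Changes that differ between lines were not simulated. The study's methods name DESeq2 without a block. The cell line pairs the samples: deviations of the control and si-MALAT1 library of one line from their group means correlated at 0.939 to 0.947 across genes, and those of different lines at -0.615 to -0.298. The p-values of the paired test measure only the spread of the difference between these lines. The line contrasts use the same residual spread, left after line and treatment. A gene whose difference varied between lines therefore has a larger error in the line contrasts.

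Within a line, differences are log2(count divided by the DESeq2-type (RLE) size factor + 1), si-MALAT1 minus control, over the 17834 genes without a count of 0, with a 95% Clopper-Pearson interval that covers counting error only (median distance from the value to a bound 0.0761 to 0.0900). A pseudocount of 10, a mean count of at least 50, TMM scaling, TPM values, and a log2 threshold of 1.5 were tried. The members, the lists, and the 3′ UTR words were chosen with earlier results of these data known. Values per library are given for 30 genes: fixed representatives of each role, the 5 with the smallest p of the paired test, the 3 highest and lowest in each line, and those past 1.5-fold in 3 of 3 lines.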

Additional observations from a re-analysis of the deposited data

Results flagged for a closer look

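The replication genes moved in opposite directions in H460 and H1299. Their median log2 difference after si-MALAT1 was 0.23 in H460 and -0.72 in H1299, and 42 of the 49 genes were higher in H460 and lower in H1299. On the log2(TPM + 1) scale, where the all-gene median in H460 was -0.07, 33 genes had this combination, and 41 had it relative to the all-gene median of each line. The difference between the lines was not tested, because each line and condition had 1 library. Of the 3 controls, the H460 library had the lowest share of reads from these genes (0.248%) and the H1299 library the highest (0.422%). Of the 3 si-MALAT1 libraries, H460 had the highest scaled count for 26 genes and H1299 the lowest for 30. The part of single libraries in the result was not tested.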

How the results depend on the processing

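The limits come first from the design. Each line and condition had 1 library, so differences within a line carry counting error only, and depth was not the limit, since the bounds lay at a median of at most 0.0900 from the value on the log2 scale. In the paired test DESeq2 called 3 members where edgeR called 0, and leaving out 1 line at a time gave 0 to 3. At an unadjusted p under 0.05 the edgeR fit had 8 members, all lower, where 7.59% of all genes were lower. The shares of all genes follow in brackets. With no block for the cell line 1 member was lower (0.607%). There were 5 lower with RLE size factors (7.04%) and 5 with no filter on low counts (4.9%). Without H460 23 were lower (7.41%), without H1299 4 were lower and 6 higher (7.13% and 6.75%), and without A549 4 were lower (2.77%). The shares of all genes thus also fell without the block and without A549. FEN1 and E2F2 turned to 0.0076 and 0.07 without the block, which changed no other direction among the 30 named genes. Leaving out 1 line at a time, the fitted log2 fold change changed sign for 14 of the 30, whose lowest and highest values were -0.47 and 0.0050 for CDC6, -0.50 and 0.0409 for MCM10, -0.0865 and 0.54 for GINS1, -0.25 and 0.44 for PCNA, -0.35 and 0.0331 for POLA1, -0.40 and 0.26 for POLE2, -0.34 and 0.26 for FEN1, -0.12 and 0.17 for RPA3, -0.0763 and 0.29 for RRM1, -0.37 and 0.17 for TK1, -0.35 and 0.0407 for CLSPN, -0.33 and 0.0326 for DTL, -0.11 and 0.43 for CCNE1, and -0.43 and 0.38 for E2F2. The sign changes arose without H460, H1299, or A549 and none of these genes was called in those fits.

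Calls between lines ranged from 1 to 16 for A549 against H460 and from 4 to 26 for H1299 against A549 with 1 library left out, and H1299 against A549 gave 10 with no filter on low counts. On the log2(TPM + 1) scale the medians were 0.10 in H460 and -0.60 in H1299 (0.16 and -0.64 after subtraction of the all-gene median, an alternative chosen after seeing the data), with 2 members higher by 1.5-fold in H460 and 1 in A549. With a log2 threshold of 1.5 the members past it numbered 0 in H460 (higher or lower), 0 lower in H1299, and 0 in A549 (higher or lower). The causes of these changes were not tested.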
